A study of Mus musculus with 4 samples.

Results

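The 10 genes described here are a panel of fetal and imprinted genes of neonatal liver, chosen by name from the 24706 genes measured in each library. They are H19, Igf2, Dlk1, Meg3, Peg3 and Cdkn1c, which are imprinted, and Igf2bp1, Igf2bp2, Igf2bp3 and Lin28b, which encode RNA-binding proteins of fetal tissues. All 10 were listed in each library, once each, and they were taken as a gauge of the fetal programme and of RNA from liver parenchyma. The data are RNA-seq of 4 mouse libraries labelled as myeloid cells, 2 labelled wt and 2 labelled cko. The wt libraries are from PD-1f/f mice, which carry LoxP sites around part of Pdcd1, the gene of the inhibitory receptor PD-1. The cko libraries are from PD-1f/f; LysM-Cre mice, which carry the same floxed allele and in addition Cre recombinase expressed from the Lyz2 locus, active in myeloid cells. The methods name the controls wild-type mice and describe RNA of livers at postnatal day 2, without a sort, whereas the results describe CD11b+ cells sorted from the liver at postnatal day 3. Nothing says which animals gave each library, so that p-values here measure only the spread between these libraries, which in cko may be technical.

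Imprinted genes are expressed mainly from the maternal or from the paternal copy. Igf2, a paternally expressed growth factor, and H19, a maternally expressed noncoding RNA, are neighbours under one imprinting control region, as are Dlk1, which encodes a membrane protein of immature hepatocytes and stromal cells, and the noncoding RNA Meg3 elsewhere in the genome. Peg3 encodes a zinc finger protein and is paternally expressed, and Cdkn1c encodes the cyclin-dependent kinase inhibitor p57 and is maternally expressed. H19, Igf2 and Dlk1 are abundant in fetal hepatocytes and are shut down in the liver after birth. Igf2bp1, Igf2bp2 and Igf2bp3 encode proteins that bind Igf2 mRNA and other transcripts, and LIN28B blocks maturation of the let-7 microRNAs. let-7 microRNAs pair through their seed with sites in the 3′ untranslated regions (UTRs) of growth-promoting mRNAs, and the LIN28 and let-7 axis separates fetal from adult haematopoiesis.

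The sequences given here are the let-7 seed, its matches in part of the panel, and the microRNA made from H19. The mature forms below are from RefSeq (GRCm38.p6), with the seed, bases 2 to 8, in capitals. let-7a-5p (shown from its copy on the minus strand, chr13:48538239-48538260) and let-7g-5p (plus strand, chr9:106178846-106178867) share a seed, whereas the arms of miR-675 (minus strand, chr7:142577112-142577133 and chr7:142577078-142577099), which lie within H19, have seeds of their own.
let-7a-5p: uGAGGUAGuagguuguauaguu
let-7g-5p: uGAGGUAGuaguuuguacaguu
miR-675-5p: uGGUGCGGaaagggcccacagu
miR-675-3p: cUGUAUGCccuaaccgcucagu

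The reverse complement of the let-7 seed, CTACCTC, was searched on the transcribed strand of the longest annotated 3′ UTR of each protein-coding gene. It was found in 8.96% of 20981 such UTRs. Among the 8 protein-coding genes of the panel, all 4 RNA-binding protein genes had a match, as did Peg3, and Igf2, Dlk1 and Cdkn1c had none. Igf2bp1 had 4 matches in 6337 bases and Lin28b had 4 in 4445 bases, and Igf2bp2, Igf2bp3 and Peg3 had 1 each. Of UTRs within 20% of their length, 33.8% held a match for Igf2bp1, 23.9% for Lin28b, 12.05% for Igf2bp2, 13.3% for Igf2bp3 and 18.8% for Peg3. The first match of each RNA-binding protein gene is shown with the match in capitals, since it is what they have in common beyond the rule that chose them. These letters are a description and not a measured site. The positions (GRCm38, all minus strand) are chr11:95961778-95961799 for Igf2bp1, chr16:22059473-22059494 for Igf2bp2, chr6:49086787-49086808 for Igf2bp3 and chr10:45381022-45381043 for Lin28b.
Igf2bp1: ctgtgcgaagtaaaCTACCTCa
Igf2bp2: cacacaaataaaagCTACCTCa
Igf2bp3: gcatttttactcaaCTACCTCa
Lin28b: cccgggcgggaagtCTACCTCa

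The number of counted reads, recovered from the whole-read steps of the values, was 22212407 in wt 1, 18822619 in wt 2, 18742152 in cko 1 and 17691502 in cko 2. Values are FPKM, reads scaled to the exon length of the gene and to the counted reads of the library, so that levels of different genes can be compared per length. Pdcd1 was 28.5 and 34.7 FPKM in wt and 17.1 and 21.4 FPKM in cko, so that the targeted gene was lower in both cko libraries but not absent. Reads of the 4 Y-linked genes examined came almost wholly from wt 2, where Xist was 0.0119 FPKM against 4.91 to 7.98 FPKM in the other libraries, so that wt 2 differed from them in sex-linked transcripts and wt 1 and wt 2 were not repeats of the same RNA. The myeloid labels were met by Ptprc (58.1 to 75.1 FPKM) and Itgam (48.5 to 54.3 FPKM). Lyz2, whose locus carries Cre in the cko mice, was 31306 and 32147 FPKM in wt and 10422 and 8127 FPKM in cko.

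Only a few of the 10 genes were well expressed. Igf2bp3 (mean 16.2 FPKM over the 4 libraries), H19 (6.60 FPKM) and Igf2 (1.0004 FPKM) had a mean of at least 1 FPKM, the minimum set for the main test. Igf2 lay just inside this minimum, and the next gene, Igf2bp2, had a mean of 0.282 FPKM. Peg3, Lin28b and Igf2bp1 averaged 0.241, 0.240 and 0.215 FPKM, and their order among each other and with Igf2bp2 was not fixed, since their ranges overlapped. Dlk1 averaged 0.146 FPKM, Meg3 0.0427 FPKM and Cdkn1c 0.0110 FPKM. The 7 genes below the minimum rested on between 0 and 115 reads per library.

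**Figure D1:**
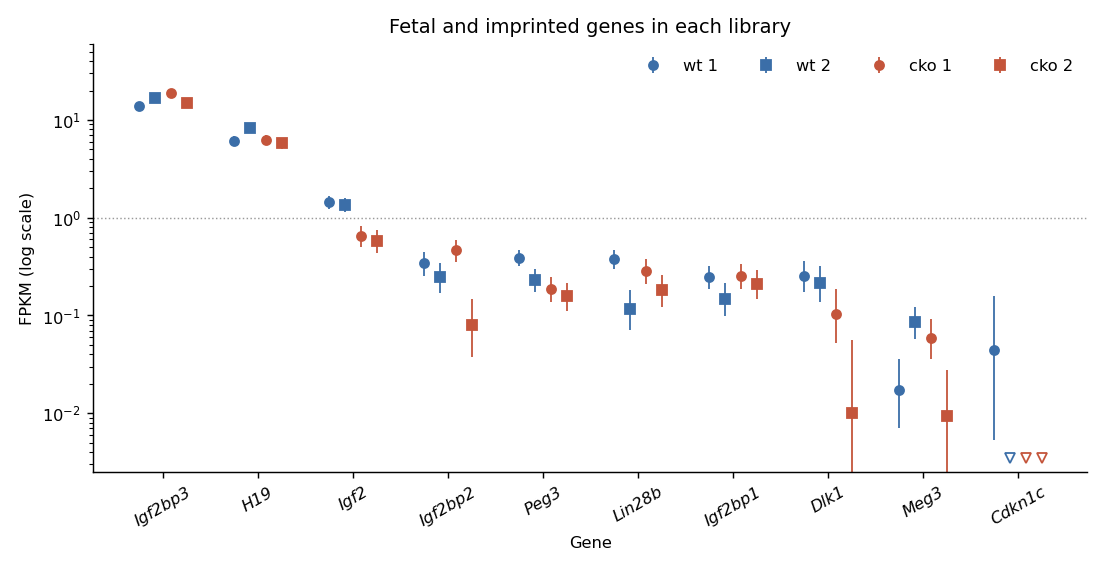
FPKM of each gene (y axis, log scale) in wt 1, wt 2, cko 1 and cko 2, ordered by mean, with bars for the 95% exact Poisson interval of the reads, which covers counting error only. The dotted line is the minimum mean of 1 FPKM, open triangles at the bottom mark libraries where Cdkn1c was listed at 0, and bars that reach the lower edge run on below it. Igf2, Peg3 and Dlk1 are the genes whose 2 cko values lie below both wt values.

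Igf2, at chr7:142650766-142666816 on the minus strand (GRCm38), was the gene of the panel with the clearest separation. It was 1.44 FPKM in wt 1 (183 reads), 1.35 FPKM in wt 2 (145 reads), 0.643 FPKM in cko 1 (69 reads) and 0.573 FPKM in cko 2 (58 reads). Both cko libraries were below both wt libraries, and the replicates of each group lay close together, with means of 1.39 ± 0.0661 FPKM in wt and 0.608 ± 0.0498 FPKM in cko (SD, n = 2). On recovered reads the rate in cko was 0.436 of that in wt, with an interval from counting error alone of 0.352 to 0.537. In limma on log2(FPKM + 1) the difference, cko minus wt, was -0.57 (SE 0.26, 95% interval -1.21 to 0.06, adjusted p = 0.339), so that it did not pass. Since the added 1 is as large as the level itself, this scale understates the difference. limma's voom on recovered reads gave -1.19 (95% interval -2.08 to -0.31, adjusted p = 0.249), which did not pass either. Before adjustment the p was under 0.05 in voom and above it in the main limma fit. In limma without a trend and with quantile normalization it was under 0.05. With 1 library left out, voom gave -1.28 to -1.11, and the unadjusted p was no longer under 0.05 without cko 1 or without cko 2. Without wt 2 it gave -1.24 (adjusted p = 0.325). Of the exonic bases of Igf2, 64.5% are shared with other annotated genes, most of them on the same strand with Gm49394, and how reads there were counted is not stated, so that its level is uncertain.

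H19, the neighbour of Igf2 at chr7:142575529-142578143 on the minus strand, did not separate the groups. Its level was 6.13 FPKM in wt 1, 8.20 FPKM in wt 2, 6.30 FPKM in cko 1 and 5.77 FPKM in cko 2. The highest value was that of wt 2, and wt 1 lay between the 2 cko libraries. The limma difference was -0.20 on the log2 scale (SE 0.20, 95% interval -0.69 to 0.28, adjusted p = 0.626), and it was -0.02 without wt 2. H19 was above the listed level of Igf2 in each library, at 6.13 against 1.44 FPKM in wt 1 and 5.77 against 0.573 FPKM in cko 2. The bases of the miR-675 precursor, whose sequences are given above, are part of the exonic bases of H19, of which 9.15% are shared with other annotated genes. Whether mature miR-675 was present was not measured.

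Dlk1 (chr12:109452823-109463336, plus strand) was lower in both cko libraries, at a level of few reads. It was 0.255 FPKM in wt 1, 0.216 FPKM in wt 2, 0.104 FPKM in cko 1 and 0.00999 FPKM in cko 2, from 32, 23, 11 and 1 reads. Both cko values lay below both wt values, and cko 2 was far below cko 1. The rate in cko was 0.246 of that in wt (counting interval 0.120 to 0.464), and voom gave a log2 difference of -2.54 (95% interval -5.66 to 0.58, adjusted p = 0.410). Without cko 2 the voom difference was -1.15 (adjusted p = 0.828), so that the single read of that library set much of its size.

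Meg3 (chr12:109541001-109571726, plus strand), the noncoding neighbour of Dlk1, did not follow it. It was 0.0174 FPKM in wt 1, 0.0852 FPKM in wt 2, 0.0590 FPKM in cko 1 and 0.00937 FPKM in cko 2, from 7, 29, 20 and 3 reads. One library of each group was high and the other low, and the voom difference of -0.52 had a 95% interval of -3.66 to 2.62 (adjusted p = 0.880).

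Peg3 (chr7:6703892-6730431, minus strand) was 0.389 FPKM in wt 1, 0.231 FPKM in wt 2, 0.188 FPKM in cko 1 and 0.157 FPKM in cko 2, from 115, 58, 47 and 37 reads. Both cko values lay below both wt values, and wt 1 stood above the other 3 libraries. The rate in cko was 0.547 of that in wt (counting interval 0.416 to 0.714). voom gave -0.82 (95% interval -2.01 to 0.38, adjusted p = 0.478), -0.42 without wt 1 and -1.16 without wt 2, so that the size of the difference depended on which wt library was kept. Cdkn1c (chr7:143458339-143461050, minus strand) had 2 reads in wt 1 (0.0442 FPKM) and was listed at 0 in the other 3 libraries. Gnas, an imprinted gene that most cells use and that was looked up after its values were seen, was also listed at 0 in wt 1. It had 16, 9 and 23 reads in wt 2, cko 1 and cko 2. Whether a 0 in these files means an absent transcript was not tested.

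Among the RNA-binding protein genes, Igf2bp3 (chr6:49085223-49214957, minus strand) was the most abundant gene of the panel. It was 14.0 FPKM in wt 1, 16.7 FPKM in wt 2, 19.03 FPKM in cko 1 and 15.0 FPKM in cko 2, from 2163 to 2910 reads. The groups overlapped, since cko 2 lay between the wt libraries. The limma difference was 0.14 (SE 0.19, 95% interval -0.33 to 0.60, adjusted p = 0.741), and the depth was not the limit here, because counting error was small beside the spread between replicates. Part of its exonic sequence, 18.7%, is shared with Malsu1 on the opposite strand.

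Igf2bp2 (chr16:22059009-22163299, minus strand) was 0.341, 0.246, 0.464 and 0.0793 FPKM in wt 1, wt 2, cko 1 and cko 2. The highest and the lowest value were both from cko, from 62 and 10 reads. The voom difference of -0.55 had a 95% interval of -2.49 to 1.39 (adjusted p = 0.786). Igf2bp1 (chr11:95957163-96005940, minus strand) was 0.246, 0.148, 0.253 and 0.210 FPKM in the same order, and the groups overlapped with a voom difference of 0.25 (95% interval -1.07 to 1.57, adjusted p = 0.863). Lin28b (chr10:45376620-45486395, minus strand) was 0.377, 0.117, 0.283 and 0.181 FPKM. The wt libraries held both its extremes, and the voom difference was 0.05 (95% interval -1.60 to 1.69, adjusted p = 0.983). For these 3 genes the voom intervals include a doubling and a halving. The intervals of the ratio of reads, cko over wt, which cover counting error alone, were narrower, at 0.672 to 1.29 for Igf2bp2, 0.838 to 1.59 for Igf2bp1 and 0.661 to 1.23 for Lin28b, so that the spread between replicates, and not depth alone, set the voom intervals.

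**Figure D2:**
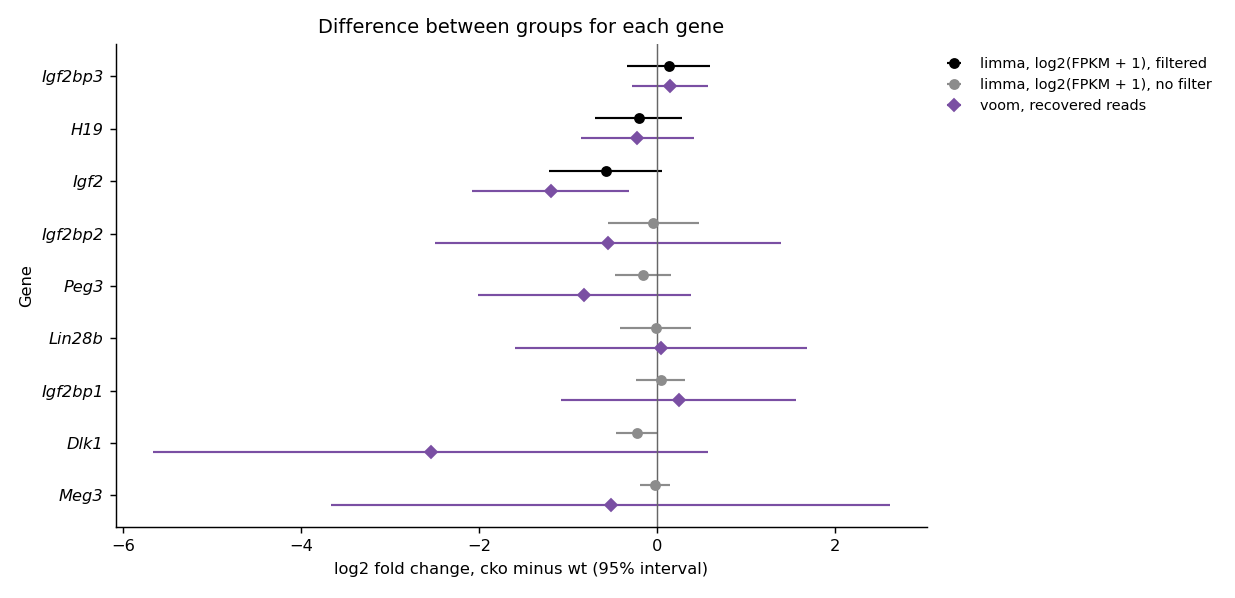
Log2 fold change, cko minus wt (x axis), with 95% intervals, for the 9 genes that could be fitted on recovered reads. Black and grey circles are limma on log2(FPKM + 1) with and without the minimum level, and diamonds are voom on recovered reads. The voom interval of Igf2 (-2.08 to -0.31), unadjusted, is the one that does not include 0.

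Over all genes, limma called 0 of 10779 at |log2FC| of at least 1 with an adjusted p under 0.05 (0%), with 1768 at an unadjusted p under 0.05, and voom called 2 of 14226 (0.0141%), Lyz2 and Gm28875, which were looked up after the count was seen. At |log2FC| above 1 with an unadjusted p under 0.01, 203 genes were higher in cko (1.88%) and 44 were lower (0.408%), and of the 3 panel genes tested 0 passed in either direction. In voom 1.64% of genes were higher and 0.387% lower at the same threshold, and of the 9 panel genes fitted 0 passed. At an unadjusted p under 0.05 alone, voom had 1 of the 9 lower (Igf2) and 0 higher, beside 4.09% and 10.8% of all genes fitted. Median-of-ratios scaling gave 142 higher and 71 lower, and quantile normalization 148 and 73. Removal of hepatocyte and erythroid genes, with each library then scaled to an equal FPKM sum, gave 348 and 18. The cko libraries were below both wt libraries for 3 of the 10 panel genes, Igf2, Dlk1 and Peg3, and above both for 0. Of the 14226 genes that reached a mean of 10 reads, 17.3% lay apart in the lower direction and 31.6% in the higher direction. With 1 library left out, when genes lie apart more readily, the count was 5 lower and 1 higher without wt 2 (28.8% and 46.5% of all genes), 5 and 2 without wt 1 (29.4% and 43.9%), 6 and 0 without cko 1 (29.9% and 46%), and 3 and 3 without cko 2 (28.3% and 44.7%). Igf2, Dlk1 and Peg3 were among the lower genes each time, as they must be once they lie apart in all 4 libraries. The median difference was -0.20 for the 3 panel genes tested by limma, beside 0.09 for all tested genes, and -0.52 for the 9 fitted by voom, beside 0.13.

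Parental origin of transcripts was not measured, so that genes are called imprinted from their listing and not from these cells. Other imprinted genes were taken from a list of 63, of which 50 were in the files and 20 had a mean of at least 1 FPKM. At an unadjusted p under 0.05, 4 of them were lower in cko and 0 higher, beside 4.95% and 11.4% of all genes tested, and their median difference was -0.12. voom, which also fits genes below 1 FPKM, had 4 lower and 3 higher among 35, beside 4.09% and 10.8% of all genes fitted. The median of the 35 was -0.07. The higher genes in voom were H13, Kcnq1ot1 and Ddc, the latter pair named after their values were seen. Dcn, which encodes the matrix proteoglycan decorin and is also on the stromal marker list, passed the unadjusted threshold. It was 4.41 and 3.72 FPKM in wt and 1.499 and 0.765 FPKM in cko, with a limma difference of -1.27 (SE 0.26, adjusted p = 0.200). Peg13, a noncoding RNA, was next, at 4.77 and 6.54 FPKM in wt and 2.80 and 2.24 FPKM in cko (-0.91, adjusted p = 0.214). At the other end were Tnfrsf23, a decoy receptor gene (0.54, adjusted p = 0.494), and H13, which encodes a signal peptide peptidase (0.37, adjusted p = 0.351).

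In the domains of H19, Igf2 and Cdkn1c on chromosome 7, 5 other genes were tested, of which 3 lay apart in the lower direction and 0 in the higher, beside 18% and 33.6% of all genes tested. Ascl2, a transcription factor gene, was 2.75 and 3.18 FPKM in wt and 1.35 and 1.36 FPKM in cko, a limma difference of -0.75 (SE 0.21, adjusted p = 0.227). Cd81, which encodes a tetraspanin, was 43.8 and 48.2 FPKM in wt and 34.3 and 28.2 FPKM in cko (-0.55, adjusted p = 0.235). Neither reached |log2FC| above 1 in limma. voom fitted 9 genes of these domains, with 2 lower and 1 higher at an unadjusted p under 0.05, beside 4.09% and 10.8% of all genes fitted. The higher gene was Kcnq1ot1, the long noncoding RNA of the domain that holds Cdkn1c, at 0.114 and 0.247 FPKM in wt and 0.369 and 0.314 FPKM in cko (voom 1.05, adjusted p = 0.258). Among the genes below the minimum of 1 FPKM, Kcnq1ot1 and Slc22a18 lay apart in the higher direction and Osbpl5 in the lower. No further gene of the Dlk1 or Peg3 domains had a mean of 1 FPKM.

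In the insulin-like growth factor (IGF) axis, 14 of 16 listed genes were in the files and 8 were tested, and 0 passed at an unadjusted p under 0.05 in limma. Their median difference was 0.20. voom had 2 of 13 lower and 0 higher at an unadjusted p under 0.05, beside 4.09% and 10.8% of all genes fitted. The lower genes were Insr and Igfals, which encodes a subunit of the circulating IGF complex and was named after its values were seen. Igfals had 42 and 22 reads in wt and 2 and 0 reads in cko, below the level of the limma test. Igf1r, the receptor that transmits the Igf2 signal, was 7.63 and 9.45 FPKM in wt and 12.4 and 8.87 FPKM in cko, so that the groups overlapped. Igf2r, the receptor that clears IGF2 and is itself imprinted, was 3.33 and 3.51 FPKM in wt and 4.38 and 3.43 FPKM in cko and also overlapped. Both receptors were thus above the listed level of Igf2 in all 4 libraries, though that level is uncertain because of its shared exonic bases. Igf1 was between 0.506 and 1.07 FPKM. Insr, the insulin receptor gene, was 4.41 and 4.69 FPKM in wt and 3.38 and 3.48 FPKM in cko (-0.33, adjusted p = 0.404), and Irs2, which encodes an adaptor of both receptors for insulin and IGF1, was 1.94 and 2.15 FPKM in wt and 2.82 and 3.17 FPKM in cko (0.39, adjusted p = 0.385). The largest limma difference in the lower direction was that of the binding protein gene Igfbp2, 1.24 and 2.50 FPKM in wt and 0.896 and 1.07 FPKM in cko (-0.50, adjusted p = 0.447), and in the higher direction that of Igfbp6 (0.83, adjusted p = 0.405).

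In the LIN28 and let-7 axis, 12 of 14 genes in the files were tested, with a median difference of 0.18. At an unadjusted p under 0.05, 1 was lower and 1 higher, beside 4.95% and 11.4% of all genes tested. voom had 2 lower and 4 higher among 14 at that p, beside 4.09% and 10.8% of all genes fitted. Bcl11a was lower beside Lin28a, and Plagl2, Plag1, Dicer1 and Dis3l2 were higher. Of these, Dicer1 and Dis3l2, which encode nucleases that make and degrade let-7 precursors, were named after their values were seen. Lin28a, the paralogue of Lin28b, was far more abundant than Lin28b, at 14.1 FPKM in wt 1, 18.8 FPKM in wt 2, 9.96 FPKM in cko 1 and 7.54 FPKM in cko 2. Both cko libraries were below both wt libraries, with a limma difference of -0.84 (SE 0.22, 95% interval -1.38 to -0.30, adjusted p = 0.214). Plagl2, a zinc finger transcription factor gene, went the other way, at 12.03 and 12.55 FPKM in wt and 20.95 and 26.5 FPKM in cko (0.89, SE 0.17, adjusted p = 0.199). Plag1, its relative, was 1.36 and 1.38 FPKM in wt and 2.38 and 2.46 FPKM in cko (0.53, adjusted p = 0.305). Bcl11a, which silences embryonic and fetal globin genes, was 1.61 and 2.65 FPKM in wt and 1.13 and 1.02 FPKM in cko (-0.57, adjusted p = 0.352). Hmga2, a let-7 target of fetal stem cells, stayed at or below 0.300 FPKM. None of these passed an adjusted threshold.

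The partners of IGF2BP1 in its mRNA-stabilising complex, 5 of 5 tested, were expressed at 1.89 to 44.9 FPKM, well above Igf2bp1, with a median difference of 0.23. Elavl1, which encodes the RNA-binding protein HuR, was 12.9 and 12.5 FPKM in wt and 17.006 and 17.001 FPKM in cko (0.39, SE 0.14, adjusted p = 0.279). The other 4 did not reach an unadjusted p under 0.05, and Hnrnpu differed least (0.05).

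**Figure D3:**
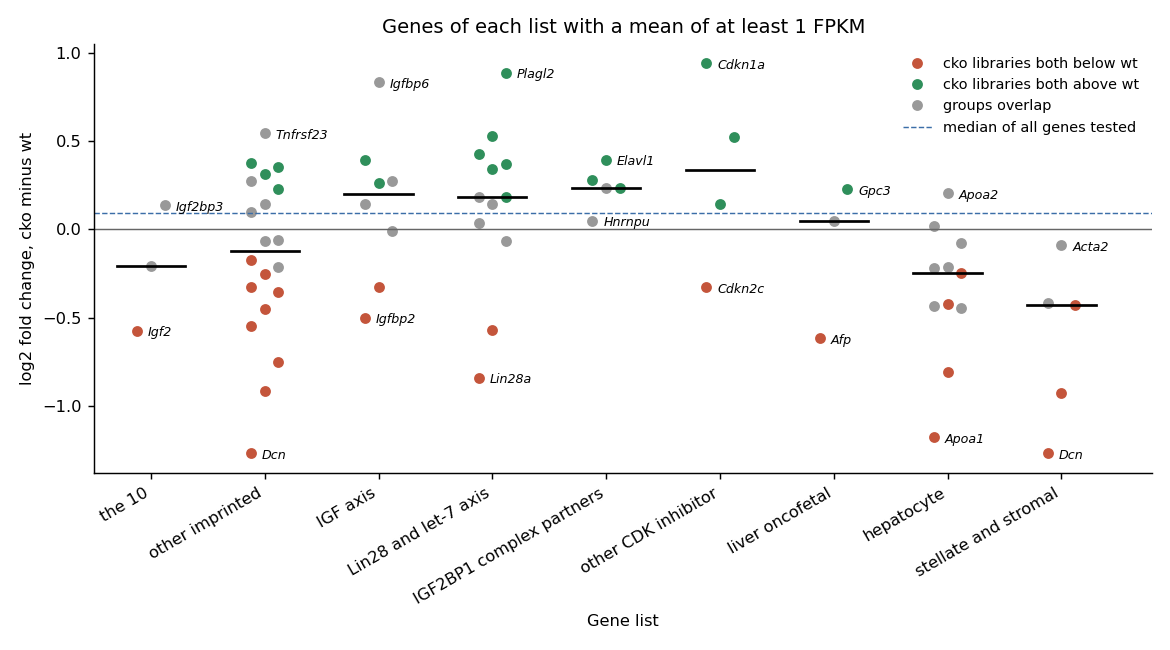
Log2 fold change in limma, cko minus wt (y axis), of each tested gene by list (x axis), with the list median as a black bar and the median of all tested genes (0.09) as a dashed line. Red points are genes whose cko libraries were both below wt, green points both above, and grey points overlapped. Igf2, Dcn and Lin28a are the lowest points of their lists.

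The gauge of liver parenchyma was read beside cell type markers. In bulk RNA, fewer cells of a type and less RNA per cell cannot be told apart. The 20 hepatocyte markers summed to 86.9 FPKM in wt 1, 145.8 FPKM in wt 2, 63.3 FPKM in cko 1 and 77.8 FPKM in cko 2, so that the sum was lower in both cko libraries. Without Apoa1 and Ahsg, the pair of tested markers with the largest differences, the sum was 31.4 and 55.8 FPKM in wt and 31.7 and 40.2 FPKM in cko and overlapped. Of the 20 markers, 9 lay apart lower in cko, 1 higher (Cps1) and 10 overlapped. Among all genes with a mean of 10 reads, 17.3% lay apart lower and 31.6% higher. Apoa2 had the highest limma difference of the markers (0.20). Of the 11 tested, 1 passed the unadjusted threshold, Apoa1, an apolipoprotein gene, at 30.9 and 48.1 FPKM in wt and 14.8 and 18.4 FPKM in cko (-1.18, SE 0.25, adjusted p = 0.206). Alb, the albumin gene, was 8.36 and 12.4 FPKM in wt and 6.13 and 8.52 FPKM in cko and overlapped. Hnf4a, a defining hepatocyte transcription factor gene, had 14 and 8 reads in wt and was listed at 0 in both cko libraries, and 3 of the 20 markers were at 0 in at least 1 library.

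The 14 stellate and stromal markers summed to 14.0 and 20.2 FPKM in wt and 10.8 and 6.97 FPKM in cko, with 4 of 14 at 0 in at least 1 library. These were Lrat, Des, Pdgfra and Lhx2, all at 0 in cko 2. Lhx2 and Pdgfra were also at 0 in wt 1, and Lhx2 in cko 1. Des was highest in cko 1, with 8 reads. Of the 5 stromal markers tested, 3 lay apart lower in cko and 0 higher, beside 18% and 33.6% of all genes tested. Dcn (-1.27) and Col1a1 (-0.93) had the largest limma differences, and Acta2 and Col3a1 overlapped. The stromal sum was not taken without Dcn and Col1a1. The 12 erythroid markers, none of them at 0, summed to 3765 and 2368 FPKM in wt and 1449 and 1549 FPKM in cko. Hbb-bs and Epb42 passed the unadjusted threshold in the lower direction, with limma differences of -1.06 and -1.04. The 14 myeloid markers summed to 117614 and 94650 FPKM in wt and 54462 and 48466 FPKM in cko, and the lymphoid markers to 69.7 and 82.2 FPKM in wt and 58.9 and 56.6 FPKM in cko. Most of the myeloid sum was S100a8, S100a9 and Lyz2, at 32243, 52186 and 31306 FPKM in wt 1. Of the 14 myeloid markers, 5 lay apart higher in cko and 6 lower, beside 33.6% and 18% of all genes tested. Their median difference was 0.14, so that single myeloid markers went both ways. The full hepatocyte, stromal, erythroid, myeloid and lymphoid sums were thus lower in both cko libraries, as were Igf2, Dlk1 and Peg3. The endothelial, megakaryocyte and stem and progenitor sums overlapped. Among endothelial markers, Stab2 passed the unadjusted threshold in the higher direction. It was 0.319 and 0.315 FPKM in wt and 3.61 and 4.76 FPKM in cko (limma 1.97, adjusted p = 0.183). Cdh5 lay apart the other way, at 2.73 and 1.39 FPKM in wt and 1.14 and 0.995 FPKM in cko (limma -0.53, adjusted p = 0.418). Of the 9 endothelial markers tested, 1 lay apart higher and 1 lower, with a median difference of 0.03. Within wt, the hepatocyte sum was higher in wt 2 than in wt 1, as was H19, whereas Igf2, Dlk1 and Peg3 were higher in wt 1. Hepatocyte and erythroid genes were also removed and each library then scaled to an equal FPKM sum. The limma difference of Igf2 was then -0.47 and that of H19 was -0.02. Before this, the FPKM of all genes summed to 491983 and 457127 in wt and 412778 and 403900 in cko. The removed sums were small beside these totals, and removal and scaling were not run apart. The part of these cells in the differences of the panel was not tested.

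**Figure D4:**
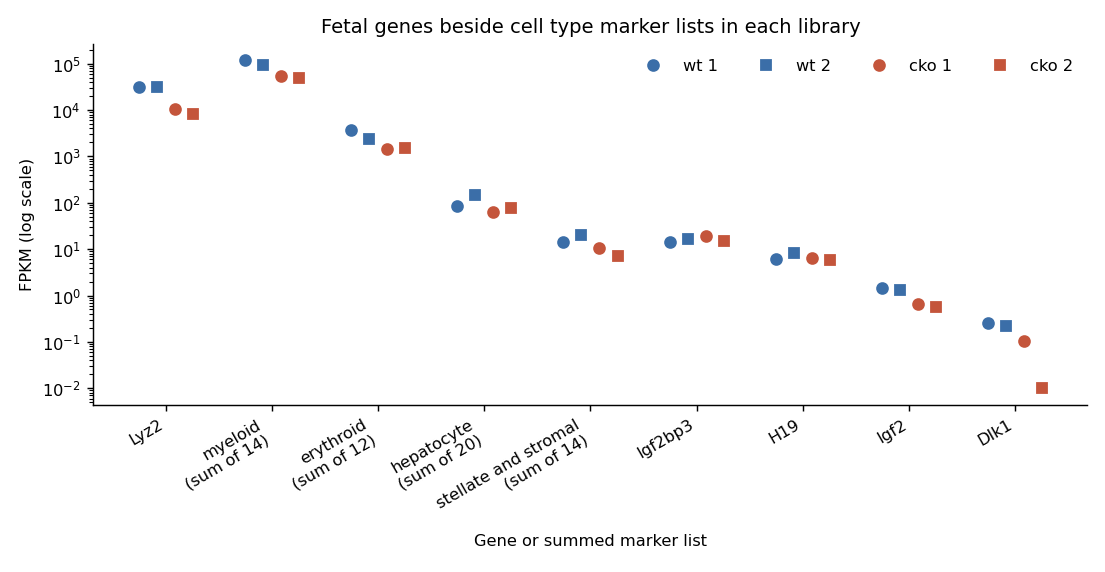
FPKM (y axis, log scale) in wt 1, wt 2, cko 1 and cko 2 of single genes and of summed marker lists (x axis), without error bars since each point is 1 library. The myeloid, erythroid, hepatocyte and stromal sums, Lyz2, Igf2 and Dlk1 are lower in both cko libraries, and H19 and Igf2bp3 overlap.

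The 3 liver oncofetal genes tested had a median difference of 0.05 and gave no common direction. Afp, the fetal counterpart of albumin, was 10.7 and 20.2 FPKM in wt and 8.46 and 10.2 FPKM in cko (-0.62, SE 0.30, adjusted p = 0.372). Gpc3, which encodes the oncofetal proteoglycan glypican 3, was 2.49 and 1.64 FPKM in wt and 2.56 and 2.54 FPKM in cko (0.23, adjusted p = 0.653). Zhx2 and Zbtb20, which encode repressors of Afp after birth, were between 0.574 and 1.05 FPKM. Of the other cyclin-dependent kinase inhibitor genes, 4 had a mean of at least 1 FPKM, far above Cdkn1c, and Cdkn2b had 1 read in all. Cdkn2d was 325 and 291 FPKM in wt and 422 and 464 FPKM in cko (0.52, adjusted p = 0.219). Cdkn1a, which encodes p21, was 11.0 and 11.4 FPKM in wt and 17.8 and 28.0 FPKM in cko (0.94, SE 0.24, adjusted p = 0.214). Of the 4 inhibitors tested, whose median difference was 0.33, 2 were higher at an unadjusted p under 0.05 and 0 were lower, beside 11.4% and 4.95% of all genes.

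The genes whose pattern over the 4 libraries was most like each tested gene were found by the root mean square difference of centred log2(FPKM + 1). For Igf2 they were Gm32051 (0.0125), Mcee (0.0236) and Gpx4 (0.0272). For H19 they were Slc4a2 (0.0151), Homez (0.0190) and Tepsin (0.0214), and for Igf2bp3 they were Paqr4 (0.0151), Hemk1 (0.0153) and Hdac7 (0.0162). Gm32051 had a level near that of Igf2, at 1.58, 1.48, 0.702 and 0.654 FPKM in wt 1, wt 2, cko 1 and cko 2. With 4 libraries such likeness is a description of these values only.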

How the data were processed

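Total RNA was sequenced on an Illumina instrument. The submitters' processing notes name Bowtie2, TopHat2, HTSeq and the build mm9, but 92.6% of positions in the files match GENCODE M21 exactly, as do those of all 10 genes, so that coordinates are GRCm38. The authors deposited 1 FPKM value per gene and library, not scaled between libraries. At 1 kb 1 read is worth 0.0450 to 0.0565 FPKM, and whole reads were recovered for 99.8% of genes within 0.02 read (91.3% from annotated lengths, the rest, such as H19 and Igf2bp2, from the nearest length giving whole reads in all libraries). Groups were taken from the labels. The main test was limma (version 3.58.1, R 4.3.3, eBayes with a trend, no covariate) on log2(FPKM + 1) over the 10779 genes averaging 1 FPKM or more, with Benjamini-Hochberg adjustment over all of them. limma's voom was run on recovered reads (mean of 10 or more). An exact two-sided permutation test of 2 against 2 cannot go below p = 0.333, so none was used. The fit was tested on data simulated with a log2 difference of 2 and a common dispersion of 0.0303. It called 92.3% of the changed genes at the adjusted threshold, with 0 false calls. Smaller differences were not simulated. Members and lists were chosen with earlier results of these data known. All 10 genes are named, and from other lists the 2 highest and 2 lowest or those past a threshold, with partners of known role. Intervals of reads cover counting error only. Alternatives were pseudocounts, minimum levels, scalings, no trend, a replicate block, voom and each library left out. A further alternative removed hepatocyte and erythroid genes and then scaled each library to an equal FPKM sum. Crossed pairing, ratios of mean FPKM, voom without single libraries and a hepatocyte sum without Apoa1 and Ahsg were added after the values were seen.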

Additional observations from a re-analysis of the deposited data

How the results depend on the processing

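Of the counts over all genes, that at |log2FC| above 1 with an unadjusted p under 0.01 was 247. It became 126 when genes averaging under 5 FPKM were left out, and ranged from 131 to 462 with 1 library left out (147 without wt 1, 462 without cko 1 and 131 without cko 2). The count at the adjusted threshold, 0, became 2 with voom. A block on the replicate number gave 258 genes and 0 panel genes at the unadjusted threshold and 0 at the adjusted one, and no call on the panel changed. The labels do not say that equal numbers pair libraries. The deviations of same-numbered libraries were only weakly related, and inversely (correlation -0.16 over 10779 genes). The crossed pairing, tried for that reason, gave 363 and, at the adjusted threshold, 1 (Acod1, looked up afterwards). The median over the panel genes tested, -0.20, was -0.022 with hepatocyte and erythroid genes removed and libraries scaled to equal sums. It was -0.52 with voom, where 9 genes enter, and -0.39 to -0.021 with 1 library left out (-0.39 without wt 1, -0.021 without wt 2). Under the alternatives run, no panel gene passed the adjusted threshold or that of |log2FC| above 1 with an unadjusted p under 0.01. At an unadjusted p under 0.05 alone and with every library kept, some did, all lower in cko. These were Igf2 in voom, in limma without a trend and with quantile normalization, and Dlk1 with median-of-ratios scaling and with quantile normalization.

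Igf2, H19, Dlk1 and Peg3 kept their direction under the alternatives run. For Igf2, Dlk1 and Peg3, whose groups lay apart, pseudocounts and leaving 1 library out could not reverse the limma direction. H19 came close to 0 without wt 2, and with the marker genes removed and each library scaled to an equal FPKM sum. Of 122 values for 9 genes, 14 changed sign, all for Igf2bp3, Igf2bp1, Igf2bp2, Lin28b and Meg3. Part of the 122 could not change sign, so that the tally is no measure of stability. Leaving out the trend or adding the replicate block, for example, keeps the limma difference as it was (-0.57 for Igf2 in each). With 1 library left out the range in limma, where the added 1 shrinks low genes towards 0, was -0.027 to 0.30 for Igf2bp3, -0.017 to 0.10 for Igf2bp1, -0.26 to 0.18 for Igf2bp2, -0.16 to 0.14 for Lin28b and -0.070 to 0.023 for Meg3. Igf2bp1 was -0.028 with quantile normalization, and Igf2bp2 was 0.0034 with marker genes removed. Lin28b was 0.032 with that removal, 0.025 with a pseudocount of 0.1, 0.090 with a pseudocount of 0.01 and 0.047 with voom. On recovered reads the range with 1 library left out was wider, at -1.83 to 0.66 for Igf2bp2, -0.72 to 0.94 for Lin28b, -1.78 to 0.69 for Meg3 and -0.09 to 0.63 for Igf2bp1. The cause was not tested. The median of all tested genes shifted from 0.09 to -0.02 with quantile normalization. It was 0.27 with marker genes removed and libraries scaled to equal sums. The 7 low genes rest on 0 to 115 reads per library, and both depth and the spread between replicates limit what their values can show.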
